A study of Homo sapiens with 2 samples.

Results

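The MYB locus on the long arm of human chromosome 6 was described here through the H3K27ac peaks that touch the stretch from 135.2 to 135.9 Mb (hg19, band 6q23.3), which holds MYB and its neighbours HBS1L and AHI1. The members were taken by position, with earlier results of these data known: 45 of the 52203 peaks in the list touched this window by 1 bp or more. The window was divided into HBS1L (135.282 to 135.424 Mb), the interval between HBS1L and MYB (135.424 to 135.502 Mb), MYB (135.502 to 135.54 Mb), the interval between MYB and AHI1 (135.54 to 135.605 Mb), AHI1 (135.605 to 135.819 Mb) and the flanks outside the genes. The data were 1 H3K27ac chromatin immunoprecipitation (ChIP-seq) library and 1 library of input DNA, sheared chromatin that was not precipitated, both from LOUCY. This human cell line was established from T-cell acute lymphoblastic leukaemia (T-ALL) and is a common model of the most immature form of that disease. The labels give no genetic change or drug treatment for either library. The peak caller kept 54357332 ChIP tags and 71932640 input tags. There were no replicates, so every value describes this pair of libraries and no difference was tested. The cell type was not checked against marker genes, because no hg19 gene annotation was used here.

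H3K27ac, acetylation of lysine 27 on histone H3, marks active promoters and enhancers, and long stretches of it are often found around genes that define a cell's identity. MYB encodes a DNA-binding transcription factor that blood stem cells and early T cells need for growth, and it binds the acetyltransferases CREBBP and EP300, which place this mark. In T-ALL, MYB is a known oncogene that can be duplicated or moved next to the T-cell receptor beta locus. HBS1L encodes a GTPase that rescues stalled ribosomes. The interval between HBS1L and MYB carries enhancers that drive MYB in red cell precursors, and common variants in it are linked to the level of fetal haemoglobin. AHI1 encodes jouberin, a protein of the primary cilium that is mutated in Joubert syndrome, and its mouse counterpart was named after a site of retroviral integration near Myb in leukaemias. MYB is read towards higher coordinates, and HBS1L and AHI1 are read towards lower ones, so the starts of HBS1L and MYB face each other across the interval between them.

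A peak lay over the start of each of the 3 genes as placed by the bounds above. For HBS1L the bound is not the RefSeq start, so the HBS1L sequence below does not come from under that peak. The promoter sequences are shown because marked domains meet genes at such sites. They run from 250 bases before to 50 bases after the annotated start in RefSeq (GRCh38.p14), 5′ to 3′ on the gene's strand, and their positions belong to that build and cannot be set beside the hg19 positions of the peaks. Capitals mark the core motif of MYB itself, AACNG, and the core of ETS factors, GGAA, on either strand; longer capital runs are matches that touch or overlap.
MYB, chr6:135181058-135181357, plus strand: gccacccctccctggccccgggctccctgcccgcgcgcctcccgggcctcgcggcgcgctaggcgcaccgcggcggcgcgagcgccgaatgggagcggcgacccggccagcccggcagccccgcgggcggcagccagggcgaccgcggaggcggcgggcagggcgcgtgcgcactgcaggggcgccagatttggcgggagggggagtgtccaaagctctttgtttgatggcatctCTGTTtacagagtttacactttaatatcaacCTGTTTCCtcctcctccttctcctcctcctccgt
HBS1L, chr6:135054773-135055072, minus strand: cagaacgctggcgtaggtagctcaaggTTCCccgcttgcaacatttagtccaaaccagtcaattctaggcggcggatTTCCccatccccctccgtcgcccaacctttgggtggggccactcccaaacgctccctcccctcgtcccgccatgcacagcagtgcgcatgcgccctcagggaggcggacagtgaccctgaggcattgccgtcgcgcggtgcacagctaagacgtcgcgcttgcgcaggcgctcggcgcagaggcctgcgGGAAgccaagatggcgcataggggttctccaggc
AHI1, chr6:135497691-135497990, minus strand: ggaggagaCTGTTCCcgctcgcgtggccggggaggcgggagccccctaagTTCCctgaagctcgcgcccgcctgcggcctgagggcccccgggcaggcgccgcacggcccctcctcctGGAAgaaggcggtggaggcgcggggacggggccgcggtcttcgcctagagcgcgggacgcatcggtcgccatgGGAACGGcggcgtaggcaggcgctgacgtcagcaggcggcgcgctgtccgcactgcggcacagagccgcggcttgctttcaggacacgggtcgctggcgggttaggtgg
All 3 promoters were rich in CpG dinucleotides. The AHI1 promoter had 40, the MYB promoter 35 and the HBS1L promoter 26, against a median of 14 over 35116 promoters of this length. As many or more were present in 7.61% of those promoters for AHI1, 14.1% for MYB and 30.1% for HBS1L. ALDH8A1, an aldehyde dehydrogenase gene that is the neighbour of HBS1L on its other side in RefSeq, had 2, and the lower flank of the window, on that side, held no peak.

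AACNG was found at 2 places in the MYB promoter, 2 in the AHI1 promoter and 0 in the HBS1L promoter. It occurs in 77.2% of all promoters, and GGAA, at 1 place in MYB, 3 in HBS1L and 4 in AHI1, occurs in 95.5%. The GC box GGGCGG was found at 1 place, in MYB (45.0% of all promoters), and GATA likewise at 1 place, in MYB (49.7%). None of the 3 windows held the E-box CANNTG on either strand, which 68.7% of all promoters hold. The same was true of the RUNX motif TGTGGT (13.1% of all promoters). It was also true of the CCAAT box (34.6%) and of the TATA box in the form TATAAA (11.5%). These are letter matches and say nothing of binding. In RefSeq the AHI1 promoter window shared 160 bases with that of the divergent noncoding gene AHI1-DT, so the mark there cannot be assigned to 1 of the pair. The HBS1L window shared 170 bases with that of the noncoding gene LOC124901405.

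The peak over the start of MYB had the highest fold of the locus and of chromosome 6. By fold times width, 7 peaks of chromosome 6 were above it, among them the wide peak between HBS1L and MYB. It spanned 135498985 to 135519949, or 20965 bp, with a fold enrichment of 19.7 over input, the ratio of ChIP pileup to the local input level that the authors' caller gave for the whole peak, and a -log10 p of 128. It reached 3.02 kb upstream of the start and 17.9 kb into the gene, and so lay over the promoter and the first part of the transcribed region. By fold it ranked 12 among all peaks. Of the 516 peaks of 20 kb or more in the list, 1 had a higher fold, 24.2, and that peak was 20581 bp wide. No other peak of the list was both at least as wide and at least as high in fold.

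The rank of this peak depended on the measure. By the caller's -log10 p it ranked 63, and by implied ChIP pileup, the number of ChIP fragments per base worked out from fold and p, it ranked 322 with 132. The input level implied at the peak was 5.78, against a median of 7.39 over the 2718 peaks of the list that reached a fold of 10, and a lower input level gives a higher fold for the same pileup. The share of the rank that comes from the input was not tested.

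Beyond its first part, MYB carried little of the mark. The other 3 peaks of the gene had folds between 2.25 and 2.72: a peak of 204 bp 19.8 kb after the start, the width of 1 fragment, a peak of 7191 bp from 28.1 to 35.3 kb after it (fold 2.72), and a peak of 943 bp at the end of the gene (fold 2.25). With the start peak they covered 69.1% of the 38 kb of MYB, and the mean fold of the covered bases was 14.3, the highest of all zones.

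**Figure D1:**
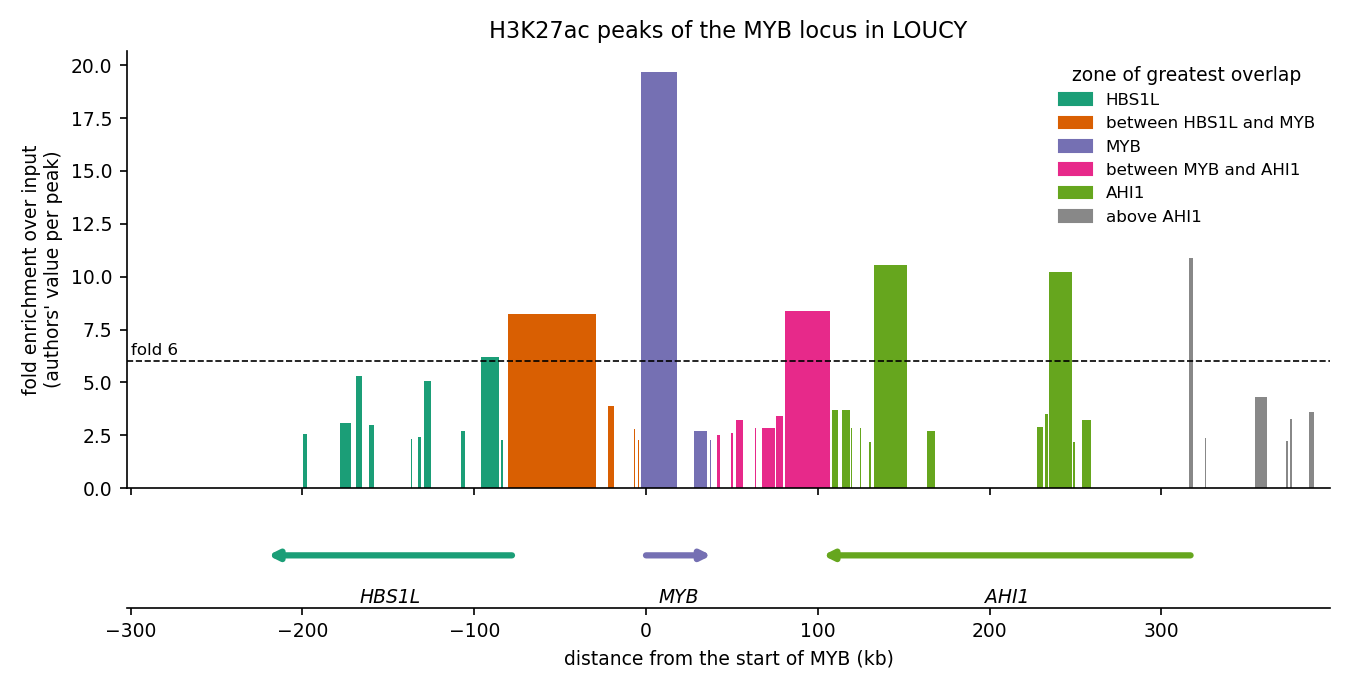
Fold enrichment over input (vertical axis) of the 45 peaks against distance from the start of MYB in kb (horizontal axis); each bar is as wide as its peak and coloured by zone, and arrows below show the direction in which each gene is read. The bar over the start of MYB reaches 19.7, the other bars above the dashed line at a fold of 6 lie between 6.20 and 10.9, and gaps of 59.4 and 57.0 kb without a peak fall within AHI1.

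The start of HBS1L, as placed by the zone bound, lay at the edge of the widest peak of the locus and of chromosome 6. This peak ran from 135421819 to 135472692, or 50874 bp, and ranked 17 by width among all peaks, with a fold of 8.21. It reached 2.18 kb into HBS1L and 48.7 kb out of it towards MYB, so 95.7% of it lay in the interval between the genes. Its far end was 29.3 kb from the start of MYB. It was 2.43 times as wide as the peak over the start of MYB, and the fold over the start of MYB was 2.40 times that of this peak. The remaining peaks between the genes were 1 of 3665 bp (135479997 to 135483661, fold 3.90) and narrow ones of 500 bp (fold 2.81) and 814 bp (fold 2.26) within 6.75 kb upstream of the start of MYB. Peaks covered 72.7% of the 78 kb between the genes, including the 3.02 kb of the MYB start peak that reach into it.

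Within the HBS1L zone the mark was patchy. The zone had 10 peaks that together with the edge of the wide peak covered 26.8% of its 142 kb, and the strongest of them had a fold of 6.20 (135405958 to 135416644, 10687 bp). Next were peaks with folds of 5.29 (135333356 to 135336774, 3419 bp) and 5.07 (135372605 to 135376921, 4317 bp), while the other 7 had folds between 2.26 and 3.08. Where HBS1L starts depends on the annotation. RefSeq gives the gene a length of 94.4 kb, 47.6 kb less than the zone, whereas the lengths of MYB (37.9 kb) and AHI1 (214.2 kb) equal their zones to within 0.21 kb. If the lower end is shared, a gene of that length would start at 135376445, inside the peak of fold 5.07. The peak of fold 6.20 would then lie outside the gene. Within RefSeq, the promoter windows of HBS1L and MYB shown above lie more than 78 kb apart, farther than the zone bounds. The HBS1L promoter sequence above therefore belongs to the start of the shorter gene and not to the start under the wide peak. Its hg19 position was not looked up. The cover, signal shares and tile shares given for HBS1L and for the interval between HBS1L and MYB hold for the zone bound at 135.424 Mb. They were not worked out for the shorter gene.

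Between MYB and AHI1 the strongest and widest peak lay beside the end of AHI1. It ran from 135582709 to 135609101 (26393 bp, fold 8.36), with 4.10 kb of it inside the end of AHI1, and ranked 231 by width among all peaks. It began 80.7 kb after the start of MYB. The other 6 peaks of the interval had folds between 2.52 and 3.43 and widths from 563 to 7258 bp. Peaks covered 62.8% of the 65 kb.

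AHI1 held a pair of strong wide peaks inside the gene and a strong narrow peak at its start. The peak from 135634448 to 135654191 (19744 bp) had a fold of 10.5 and lay 132 to 152 kb from the start of MYB. The peak from 135736856 to 135749792 (12937 bp) had a fold of 10.2. The peak over the start of AHI1 (135818241 to 135820467) had a fold of 10.9, the second highest of the locus, but was only 2227 bp wide, and 1.47 kb of it lay upstream of the start. Of the 1763 peaks in the list with at least this fold, 85 were as narrow or narrower, and their median width was 5165 bp. The fold over the start of MYB was 1.81 times that over the start of AHI1, and the MYB peak was 9.41 times as wide. The other 11 peaks of AHI1 had folds between 2.18 and 3.71. Gaps of 59.4 kb (135670465 to 135729833) and 57.0 kb (135761229 to 135818240) inside the gene had no peak, and peaks covered 29.9% of its 214 kb.

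The flanks carried the least. No peak lay between the lower end of the window and 135302339, which is 102 kb. Above the start of AHI1, 6 peaks besides the start peak had folds between 2.22 and 4.33, the highest in a peak of 6858 bp from 135856532 to 135863389.

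**Figure D2:**
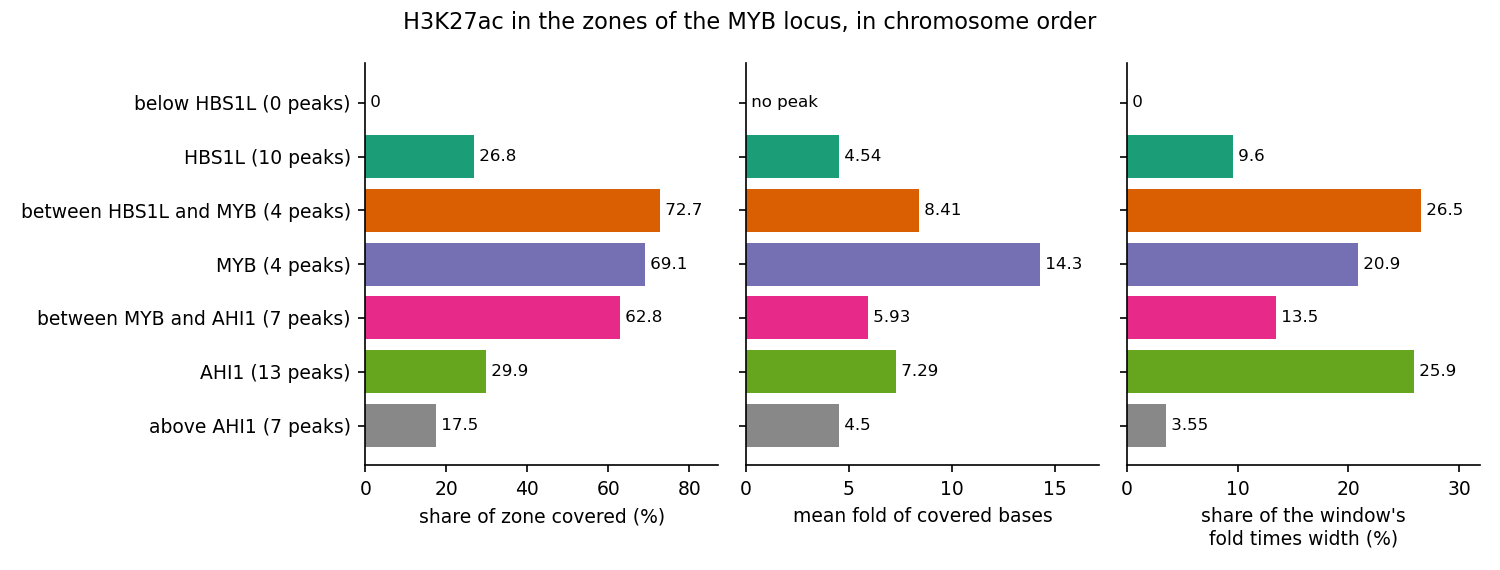
Share of each zone covered by peaks (left, percent), mean fold of the covered bases (middle) and share of the window's summed fold times width (right, percent), with zones in chromosome order from top to bottom and the number of peaks counted in each. With the zone bounds used, the interval between HBS1L and MYB has the highest cover, 72.7%, and MYB the highest mean fold, 14.3. MYB and both intervals beside it are each covered by more than 60%. The values of HBS1L and of the interval between HBS1L and MYB depend on where HBS1L is taken to start.

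By the summed product of fold and width, the signal of the window was split between MYB and its surroundings. The interval between HBS1L and MYB held 26.5% of it, AHI1 25.9%, MYB 20.9%, the interval between MYB and AHI1 13.5%, HBS1L 9.60% and the upper flank 3.55%. AHI1 is the longest zone, and per base its value was lower: fold averaged over all bases of a zone, with bases outside peaks at 0, was 9.89 in MYB, 6.11 between HBS1L and MYB, 3.73 between MYB and AHI1, 2.18 in AHI1 and 1.22 in HBS1L. By the highest fold of any peak counted in the zone, the order was MYB (19.7), the flank above AHI1 (10.9), AHI1 (10.5), the interval between MYB and AHI1 (8.36), the interval between HBS1L and MYB (8.21) and HBS1L (6.20). The values of the 2 intervals differ little, and with 1 library there is no spread against which to read their order. The flank is second only because the peak over the start of AHI1 lies mostly beyond the zone bound and is counted there, not in AHI1. By highest implied pileup, MYB (132) was followed by AHI1 (92.0), the interval between MYB and AHI1 (80.3), the flank (75.2), the interval between HBS1L and MYB (63.2) and HBS1L (47.8), so the flank moved while the order of the other 5 zones was the same.

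Most members were weak. A fold of 6 or more was reached by 7 of the 45 members, or 15.6%, against 23.2% of all peaks and 17% of the 271 other peaks within 10 Mb on either side of the window. A fold of 10 or more was reached by 4 members (8.89%), against 5.21% of all peaks and 1.85% of those within 10 Mb. A fold below 3 was found in 25 members (55.6%), against 48.2% of all peaks and 48.3% of those within 10 Mb. The median fold of the members was 2.88 (interquartile range 2.57 to 3.71), against 3.08 for all peaks and 3.10 for those within 10 Mb. A -log10 q of 10 or more was reached by 9 members (20%), against 36.8% of all peaks and 28% of those within 10 Mb. The typical member was thus no stronger than other peaks: the 7 strong members held 60.0% of the members' summed width and 82.5% of their summed fold times width.

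What set the members beside other peaks was width and spacing. A width of 10 kb or more was found in 6 members (13.3%), against 4.37% of all peaks and 2.58% of those within 10 Mb. The median width of the members was 2653 bp, against 1670 bp for all peaks and 1397 bp for those within 10 Mb. The 7 strong members had a median width of 19744 bp, and the other 38 a median of 1720 bp. All 6 wide members were among the 7 strong ones. Strong peaks were wider over the whole list too: the 1763 peaks with at least the fold of the AHI1 start peak had a median width of 5165 bp. The members lay at 64.3 per Mb, against 17.2 per Mb genome-wide and 13.6 per Mb within 10 Mb. The median gap between neighbouring members was 3466 bp, against 11793.5 bp for all neighbouring peaks, and 17 of the 44 gaps between members (38.6%) were under 2 kb, against 16.3% of all gaps. Several of the weak members sit directly beside a strong one: the gap below the MYB start peak was 881 bp, and the gap below the peak that reaches into the end of AHI1 was 926 bp. Both gaps are close to the smallest between neighbouring peaks in the whole list, 817 bp. Whether such neighbours would be called as 1 peak at greater depth was not tested.

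**Figure D3:**
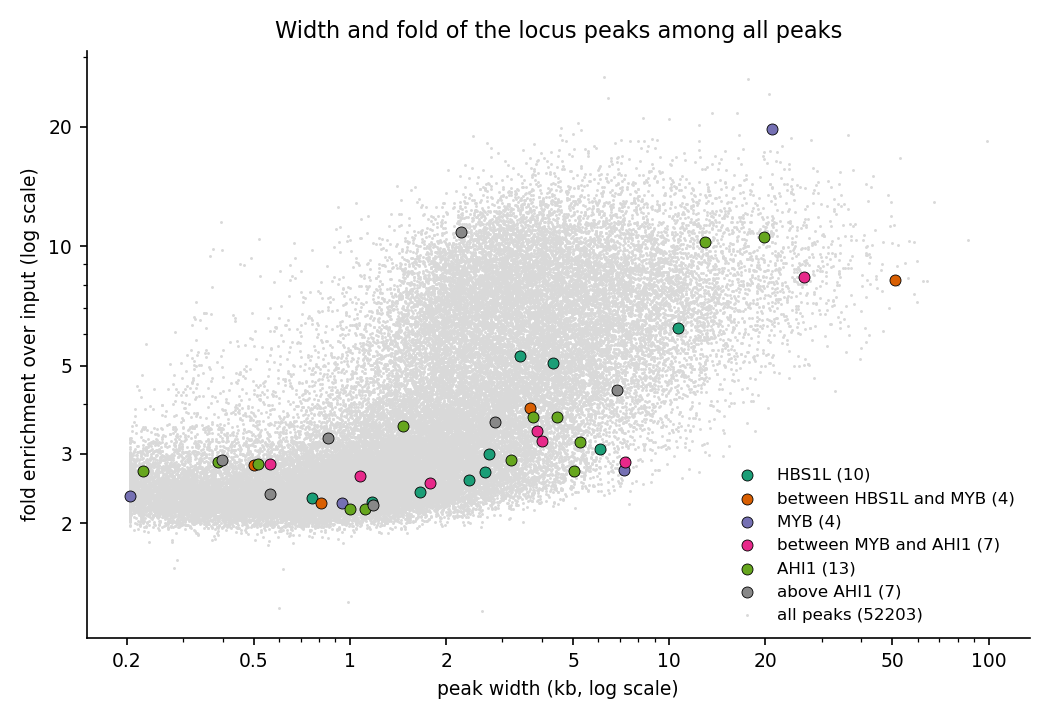
Peak width in kb (horizontal, log scale) and fold enrichment over input (vertical, log scale) of the 45 locus peaks, coloured by zone with their numbers, and of all 52203 peaks in grey. The MYB start peak, at 21.0 kb and a fold of 19.7, lies at the upper right edge of all peaks, the AHI1 start peak at the upper left, and most members lie at folds below 3.

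Peaks covered 239.883 kb, or 34.3%, of the window, against 4.92% of chromosome 6 and 4.90% of the genome. Of 4327 consecutive tiles of 700 kb across the genome, 9 (0.208%) had at least this cover. The median tile had 2.78% and the highest 52.5%. The window was drawn around these genes and the tiles were not, which favours the window: the 2 tiles that touch it had 32.1% and 5.49%. The highest of the other 29 tiles within 10 Mb had 14.4%. By tiles of each zone's own length, 0.177% were covered as much as the interval between HBS1L and MYB, 0.448% as much as that between MYB and AHI1, 0.553% as much as MYB, 2.07% as much as AHI1 and 3.59% as much as HBS1L.

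**Figure D4:**
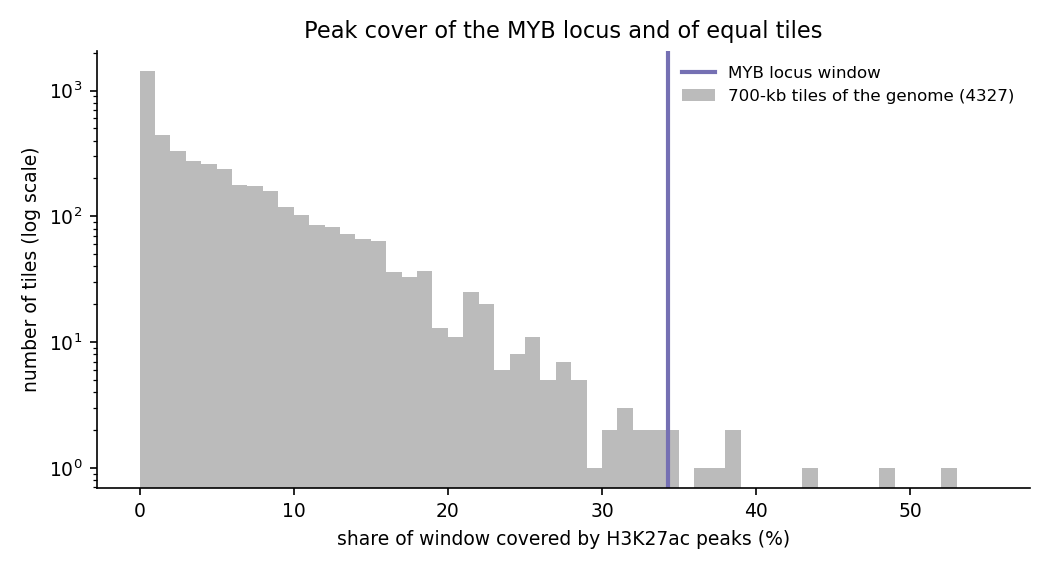
Number of 700-kb tiles of the genome (vertical, log scale) by the share of the tile covered by H3K27ac peaks (horizontal, percent), with the MYB locus window as a vertical line. The line at 34.3% has 9 of the 4327 tiles at or beyond it.

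Neighbouring peaks were joined at the distance in common use for super-enhancers, which here bridged gaps of up to 11589 bp and left one of 17231 bp open. By this, 26 of the 45 members fell into 1 domain of 276 kb. It covered MYB, both intervals beside it, the first part of the HBS1L zone and the last part of AHI1. It begins at 135394153, so it would hold none of the shorter RefSeq HBS1L if that gene starts at 135376445. Peaks filled 65.1% of the span of the domain, and 4 of them held 85.1% of its summed fold times width. The wide peak between HBS1L and MYB gave 28.2%, the MYB start peak 27.9%, the peak reaching into the end of AHI1 14.9% and the strong peak 132 kb from the start of MYB 14.1%. The domain ranked 2 of 25510 by this sum, and none of the first 15 domains had a higher highest fold. The rank depended on the ranking value and on the joining. With the same joining it was 7 by summed width and 12 by implied pileup times width. With joining within 5 kb the piece with the start of MYB spanned 26.7 kb and ranked 154, and with peaks of a -log10 q of at least 10 only, the MYB start peak stood alone and ranked 130. The strong peak at 10.2 in AHI1 and the AHI1 start peak belonged to other domains, which ranked 1101 and 8478.

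The implied input level differed between the members. It was worked out for each peak as the level at which the fold has the deposited p-value, in fragments per base. It is approximate for broad peaks, and its lowest possible value is 4.11, the genome-wide control level. Its median was 4.91 over the members, against 6.34 over all peaks and 4.62 over those within 10 Mb. The members were thus nearer to the peaks around them than to all peaks of the list. Each of these medians lay above the genome-wide control level. Among the members with a fold of 6 or more the implied level ran from 5.78 to 8.72, and among the other 38 from 4.11 to 6.37. Within the strong members it did not follow fold, since the MYB start peak, with the highest fold, had the lowest level, 5.78. The highest, 8.72, was that of the peak reaching into the end of AHI1, whose implied pileup of 80.3 ranked 4342 while its fold ranked 5597. At the strong peak 132 kb from the start of MYB the level was 7.81 and the pileup 92.0. By pileup the MYB start peak again came first with 132, 1.44 times the next. The part of the input in these differences was not tested.

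**Figure D5:**
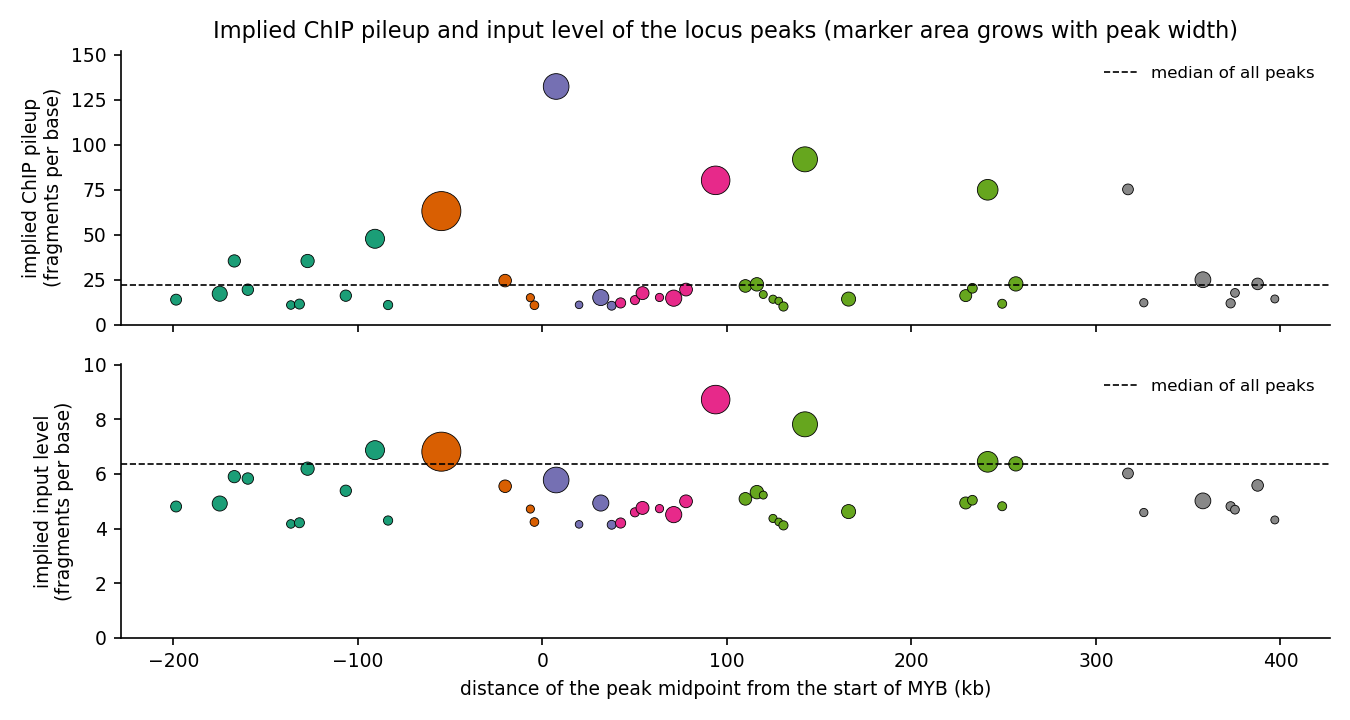
Implied ChIP pileup (upper panel) and implied input level (lower panel), both in fragments per base, of the 45 peaks against the distance of the peak midpoint from the start of MYB in kb; zones have the colours of the map of fold by distance, marker area grows with peak width, and dashed lines are the medians of all peaks. The MYB start peak is highest in pileup, 132, and the peak reaching into the end of AHI1 is highest in input level, 8.72.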

How the data were processed

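Per the labels' protocols, chromatin of LOUCY cells was cross-linked, sheared to 200 to 300 bp, precipitated with an H3K27ac antibody and sequenced single-end. Bowtie2, MACS2 and hg19 are named in the submitters' processing notes. Per the file headers, the authors called broad peaks with MACS2 2.1.0.20140616 on the ChIP library against input, with a q cutoff of 0.05, 204-bp fragments and 1 tag kept per position, which caps strong peaks. The deposited fold is a ratio of ChIP to local input level, and the deposited p-value and q-value are -log10 values, 1 per peak. The deposited width equals end minus start plus 1; the deposited pileup was below 0 throughout and was not used.

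Members were taken by coordinates and counted in the zone of greatest overlap; cover was clipped at zone bounds. The peaks described in full were those over each gene start, the 10 strongest, the 5 widest and the strongest of each zone; others named were picked after their values were seen. The implied input level solves the Poisson p for the deposited fold with 1 added to pileup and control. It is approximate, since values are combined over a broad peak. A run on simulated data used the same formula to make the p-values, so it checked the solving step only and cannot test this approximation. Chromosome lengths came from circlize 0.4.16; promoter sequences and gene lengths came from RefSeq GRCh38.p14, in which all 3 genes matched by symbol. No hg19 sequence or annotation was used. The members, motifs and thresholds were chosen with earlier results of these data known. Calculations ran in Python 3.11.15 (pandas 2.3.3, scipy 1.17.1, numpy 2.4.6, matplotlib 3.10.9). Higher cutoffs on q and fold, other overlaps, merging, stitching and ranking values were tried as alternatives.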

Additional observations from a re-analysis of the deposited data

How the results depend on the processing

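Of the 45 members, 17 had a -log10 q of 5 or higher, 9 had one of 10 or higher and 10 had a fold of 4 or higher, and merging peaks under 2 kb apart left 28. The cover of the window was 26.2%, 21.7% and 22.6% under the same 3 thresholds. With the strictest, a -log10 q of 10, the interval between HBS1L and MYB kept a cover of 66.3%, MYB 47.2%, the interval between MYB and AHI1 34.3%, AHI1 17.5% and HBS1L 14.5%. The domain with the start of MYB, rank 2 as reported, ranked 154 with stitching within 5 kb, 7 by summed width, 12 by implied pileup times width and 130 with the strictest q. The members with a fold of 6 or more numbered 7, and 6 were as highly ranked by implied pileup. Counting peaks by their midpoint changed the highest fold of none of the 5 zones of genes and intervals, and requiring 0.5 or more of a peak inside the window changed no member. Planned promoter checks of MYB partner genes and cell type markers were not run, since they need an hg19 annotation. No paired analysis was possible because the ChIP and the input each have 1 library.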
